A study of Mus musculus with 9 samples.

Results

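RNA sequencing of mouse duodenal organoids was examined for 10 genes that are used as markers of intestinal stem cells. These were Lgr5, Olfm4, Ascl2, Smoc2, Axin2, Prom1, Cd44, Sox9, Msi1 and Lrig1, and all 10 were found by symbol among the 46517 genes of each deposited table. The organoids were grown from duodenal crypts of wild type C57BL/6J mice in Matrigel with L-WRN conditioned medium, which carries Wnt3a, R-spondin 3 and noggin. All 9 samples received an adenovirus: Ad-hHIF2 in 3, Ad-hHIF1 in 3, and the control virus Ad-GFP in 3. Expression from the HIF viruses is transient. Each encodes a human HIF with alanine in place of the prolines that EGLN enzymes modify, a form that escapes oxygen-dependent degradation. The replicates of each group are numbered 1, 3 and 4, which the study calls biological, but the sources used here do not say for the sequencing whether each came from its own mouse, so that p-values measure the spread between these samples only. The comparisons ask whether HIF2 or HIF1 changes the level of stem cell marker transcripts in cultures that are described as enriched for stem cells.

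Intestinal stem cells sit at the base of the crypt and renew the epithelium under Wnt signals from neighbouring cells. Lgr5 encodes a receptor for R-spondins, which raise the response to Wnt. Ascl2 is a Wnt-dependent transcription factor that maintains the Lgr5-positive state, and Axin2 is a feedback inhibitor that is transcribed when Wnt signalling is active. Olfm4 and Smoc2 encode secreted proteins and mark crypt base columnar cells, the cycling stem cells between the Paneth cells. Sox9, a Wnt-responsive transcription factor, and Cd44, a hyaluronan receptor, are found through much of the crypt and not in the stem cell alone. Prom1 encodes a membrane protein (CD133), Msi1 an RNA-binding protein, and Lrig1 a membrane protein that lowers ErbB signalling.

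HIF1 and HIF2 bind DNA at a short core written ACGTG or GCGTG. The 250 bases before the RefSeq transcription start (GRCm38.p6) were available for 6 of the 10 markers and were searched on both strands. Lgr5, Smoc2, Sox9 and Msi1 had no entry in the promoter set used here. The promoters of Ascl2, whose few counts came mostly from Ad-hHIF1 samples, of Cd44, whose small decrease with HIF2 depended on the scaling and on single samples, and of Lrig1, which was not called in any comparison, are shown on the strand of the gene, with matches in capitals. A core on the opposite strand reads CACGT or CACGC.
Ascl2, chr7:142969265-142969514, minus strand: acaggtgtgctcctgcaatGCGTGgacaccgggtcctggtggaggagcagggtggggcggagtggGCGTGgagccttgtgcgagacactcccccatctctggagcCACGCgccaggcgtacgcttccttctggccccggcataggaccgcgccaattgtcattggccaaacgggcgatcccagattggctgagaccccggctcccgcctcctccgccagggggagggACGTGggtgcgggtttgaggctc
Cd44, chr2:102901666-102901915, minus strand: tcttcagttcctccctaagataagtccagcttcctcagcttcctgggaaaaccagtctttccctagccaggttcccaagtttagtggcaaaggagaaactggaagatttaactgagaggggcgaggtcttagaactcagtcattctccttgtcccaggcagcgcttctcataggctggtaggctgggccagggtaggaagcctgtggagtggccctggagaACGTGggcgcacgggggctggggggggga
Lrig1, chr6:94700146-94700395, minus strand: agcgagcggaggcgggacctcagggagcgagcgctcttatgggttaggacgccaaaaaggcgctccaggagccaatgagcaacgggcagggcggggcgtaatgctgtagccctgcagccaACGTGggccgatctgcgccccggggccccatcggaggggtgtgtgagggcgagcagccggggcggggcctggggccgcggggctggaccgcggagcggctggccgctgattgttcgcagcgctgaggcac
Ascl2 held 4 matches, which start 231, 185, 145 and 23 bases before the transcription start. Cd44 and Lrig1 each held 1 match, 29 and 130 bases before it, and Olfm4 held 1 match as well. Neither Axin2 nor either of the Prom1 promoters held any. Of 32851 promoter windows of this length, 38.6% held at least 1 match and 2.58% held at least 4. A match is a description of the letters and not a measured binding site.

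In the libraries, summed expected counts (RSEM's estimate of the reads per gene) ran from 21722618 in Ad-GFP replicate 4 to 51119041 in Ad-hHIF2 replicate 3. Gm10800 and Gm26870, a pair of satellite-like genes, took 16.0% of the counts of Ad-hHIF1 replicate 3 and between 0.433% and 4.28% elsewhere. TPM, RSEM's length-scaled abundances, stood apart in Ad-hHIF2 replicate 1, with a median of 0.95 over the genes tested in all 9 samples against 0.46 to 0.54 in the other 8. Levels are given as CPM, the counts divided by library sizes that TMM had corrected. As a check of the transduction, Epas1, which encodes mouse HIF2α, ran from 604.3 to 757.5 CPM with Ad-hHIF2 and from 1.47 to 2.20 with Ad-GFP. The viruses carry human HIFs, and whether reads of these transgenes were counted on mouse Epas1 or Hif1a was not tested. The values are therefore not a measure of the mouse genes alone. Hif1a ran from 299.3 to 319.2 CPM with Ad-hHIF1 and from 197.6 to 251.2 with Ad-GFP, and this increase of 0.49 on the log2 scale had an adjusted p of 0.486 (edgeR).

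The levels of the markers ranged from among the higher genes to 0. To compare levels between genes, CPM were divided by the effective transcript length in kilobases. In Ad-GFP organoids, Cd44 stood first at 27.6 CPM per kb (24.7 to 30.6 over the 3 samples), above 88.4% of the 15551 genes tested over all 9 samples. Lrig1 followed at 13.7, Prom1 at 3.80 and Sox9 at 2.08 CPM per kb, above 77.9%, 49.4% and 37.9% of these genes, and the samples of neighbouring genes in this order did not overlap. Below these came Msi1 at 0.355, Axin2 at 0.192, Ascl2 at 0.150, Smoc2 at 0.0475 and Lgr5 at 0.0468 CPM per kb, and neighbours among these 5 overlapped. Lgr5 stood above 0.5% of the tested genes. Olfm4 was at 0. The order from Cd44 to Sox9 was the same in all 3 groups, and within each group the samples of these 4 genes did not overlap.

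**Figure D1:**
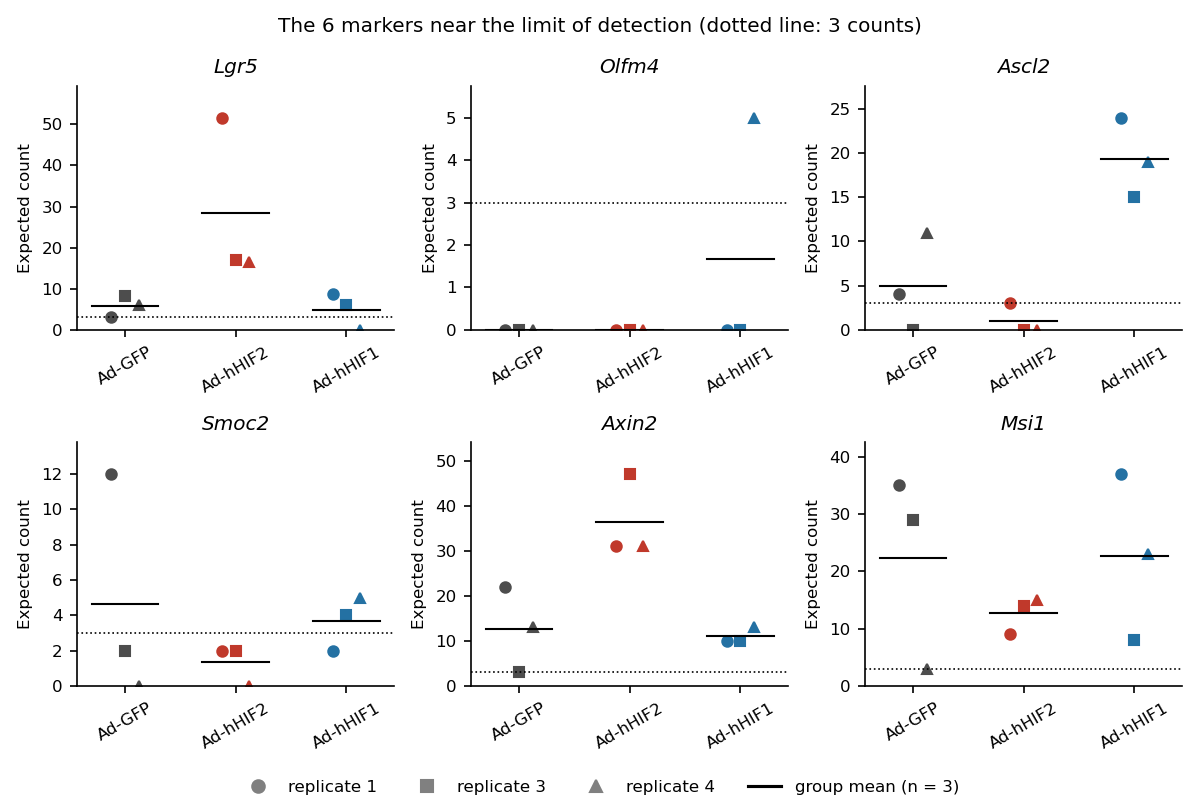
Expected counts of the 6 markers near the limit of detection, by group. Each point is 1 sample, the shape gives the replicate number, the bar is the mean of 3 samples and the dotted line is 3 counts. Olfm4 has counts in only 1 of 9 samples, Lgr5 is above 10 counts only in the Ad-hHIF2 samples, and Ascl2 is above 11 counts only in the Ad-hHIF1 samples.

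Lgr5 (chromosome 10, 115450311 to 115587780, minus strand, GRCm38 annotation) had 3.03, 8.20 and 6.03 expected counts in Ad-GFP replicates 1, 3 and 4. It had 51.6, 17.0 and 16.6 in Ad-hHIF2 and 8.73, 6 and 0 in Ad-hHIF1 replicates 1, 3 and 4. All 3 Ad-hHIF2 samples lay above the samples of the other groups, with replicate 1 far above the others. Olfm4 (chromosome 14, 79984081 to 80023139) had 5 counts in Ad-hHIF1 replicate 4 and 0 in the other 8 samples. A count of 0 allows up to 3 counts, which is 0.0589 to 0.150 CPM at these depths. Ascl2 (chromosome 7, 142966829 to 142969264) had 4, 0 and 11 counts in Ad-GFP, 3, 0 and 0 in Ad-hHIF2 and 24, 15 and 19 in Ad-hHIF1 replicates 1, 3 and 4. The 3 Ad-hHIF1 samples had more Ascl2 counts than any other sample, but after scaling to depth they overlapped the Ad-GFP samples. Smoc2 (chromosome 17, 14279506 to 14404790) had 12, 2 and 0 counts in Ad-GFP, 2, 2 and 0 in Ad-hHIF2 and 2, 4 and 5 in Ad-hHIF1 organoids. Most samples were within a few counts of 0, and the groups overlapped.

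The description of the cultures was checked against these and other defining genes. The markers gave no single answer. The crypt base columnar markers Lgr5, Olfm4, Ascl2 and Smoc2 were at or near 0 in the control organoids. These 4 transcripts were thus not abundant in cultures that are described as enriched for stem cells. The 9 samples hold no culture without enrichment to compare them with. Cd44 and Lrig1, which are less restricted to the stem cell, were well above the median gene, and 16 other genes of crypt base stem cells summed to 310 to 333 CPM in Ad-GFP samples. Most of that sum was Soat1, Slc12a2 and Nrn1, with means of 113.3, 80.1 and 74.0 CPM, while Sp5 was at 0 and Tnfrsf19, Aqp4, Nkd1 and Gkn3 were as near to 0 as Lgr5, with means of 0.0455 to 0.226 CPM. In bulk samples, fewer cells of a type and less RNA per cell cannot be told apart. Epithelial transcripts were abundant: over the 9 samples the keratin Krt8 ran from 1022 to 1358 CPM and Cdh1, the epithelial cadherin, from 204.1 to 352.0 CPM. Epcam, an epithelial surface protein, was low at 1.42 to 3.80 CPM. The duodenal transcription factors Pdx1, Gata4 and Onecut2 were all present, at 5.79 CPM or more in every sample. Of 7 Paneth cell genes, 6 had at most 3 counts in every sample. The 7 enteroendocrine genes summed to at most 0.436 CPM in any sample. The 5 immune genes summed to at most 1.85 CPM and the 5 fibroblast genes to at most 12.6 CPM.

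The main change with HIF2 was a lower level of Sox9. Of the 10 markers, 7 had enough counts for the test of Ad-hHIF2 against Ad-GFP, and Olfm4, Ascl2 and Smoc2 did not. Lgr5 passed that filter only through the counts of the Ad-hHIF2 samples, so that its values are given as a description and the counts here are over the other 6 markers. By the quasi-likelihood test of edgeR, Sox9 and Cd44 passed an adjusted p of 0.05 (a gene past this threshold is referred to as called), both were lower with HIF2, and Sox9 alone changed at least 2-fold. Over all 14987 genes tested, 29.5% were called, 13.6% were called as lower and 6.73% were called with a change of at least 2-fold. Thus 2 of 6 called markers is close to the share over all genes. For 4 of the 6 markers the Ad-hHIF2 and Ad-GFP samples did not overlap, against 45.8% of all genes. The median log2 fold change was -0.15 over the 6 markers and -0.012 over all genes.

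**Figure D2:**
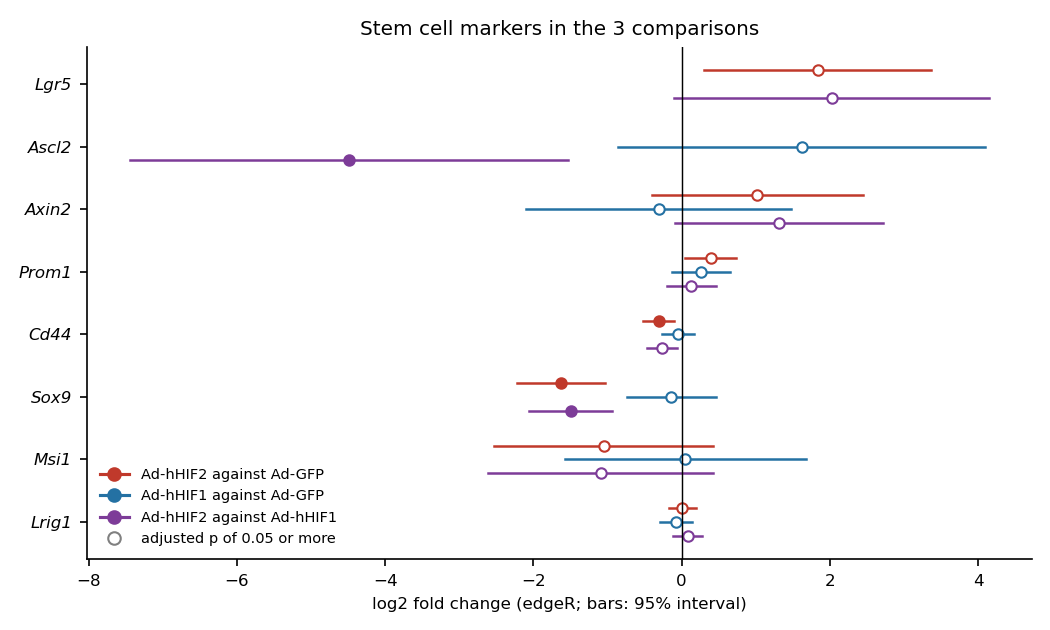
Log2 fold changes of the 8 markers tested in at least 1 comparison, from edgeR's quasi-likelihood test, with 95% intervals. Filled points have an adjusted p below 0.05. Sox9 is lower in Ad-hHIF2 organoids against both other groups, Lrig1 lies close to 0 in all 3 comparisons, and the intervals of Lgr5, Ascl2, Axin2 and Msi1 are wide. Lgr5 with HIF2, and Ascl2 between the HIFs, passed the count filter through 1 of the groups compared alone.

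Sox9 (chromosome 11, 112782224 to 112787760, plus strand) was at 6.72, 6.29 and 11.9 CPM in Ad-GFP replicates 1, 3 and 4. It was at 2.26, 2.75 and 2.94 CPM in Ad-hHIF2 and at 7.48, 6.26 and 8.64 CPM in Ad-hHIF1 replicates 1, 3 and 4. Every Ad-hHIF2 sample lay below every other sample, and the Ad-GFP and Ad-hHIF1 samples overlapped. The level was 8.30 ± 3.12 CPM in Ad-GFP and 2.65 ± 0.350 CPM in Ad-hHIF2 organoids (SD, n = 3 each). The fitted level was 3.09-fold lower, a log2 fold change of -1.63 (standard error 0.263, 95% interval -2.23 to -1.03, adjusted p = 0.0023, edgeR). Ad-GFP replicate 4, the smallest library, held the highest Sox9 level. Without it the log2 fold change was -1.29 (adjusted p = 0.00138, edgeR), and Sox9 was called whichever of the 6 samples was left out. With total counts in place of TMM it was -1.39 and called. On log2(TPM + 0.1) the difference was -0.72 and was not called (adjusted p = 0.0809, limma). Without Ad-hHIF2 replicate 1 it was -0.82 there and again not called (adjusted p = 0.0853, limma). Sox9 was at 0.20, 0.20 and 0.35 TPM in Ad-GFP and at 0.14, 0.09 and 0.10 TPM in Ad-hHIF2 replicates 1, 3 and 4. A pseudocount of 0.1 is of the size of these values and one of 1 is larger, and both make log2 differences smaller.

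In the direct contrast of the HIFs, Sox9 was 2.83-fold lower with Ad-hHIF2 than with Ad-hHIF1. The log2 difference was -1.50 with a standard error of 0.251 (adjusted p = 0.00173, edgeR). This direct contrast was not called on either TPM scale (adjusted p = 0.128 with a pseudocount of 1 and 0.0977 with 0.1, limma), and without Ad-hHIF2 replicate 1 it was called with a pseudocount of 0.1 (adjusted p = 0.0477, limma). Ad-hHIF1 and Ad-GFP organoids differed in Sox9 by -0.14 on the log2 scale (95% interval -0.74 to 0.46, adjusted p = 0.888, edgeR). This difference became 0.20 without Ad-GFP replicate 4.

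**Figure D3:**
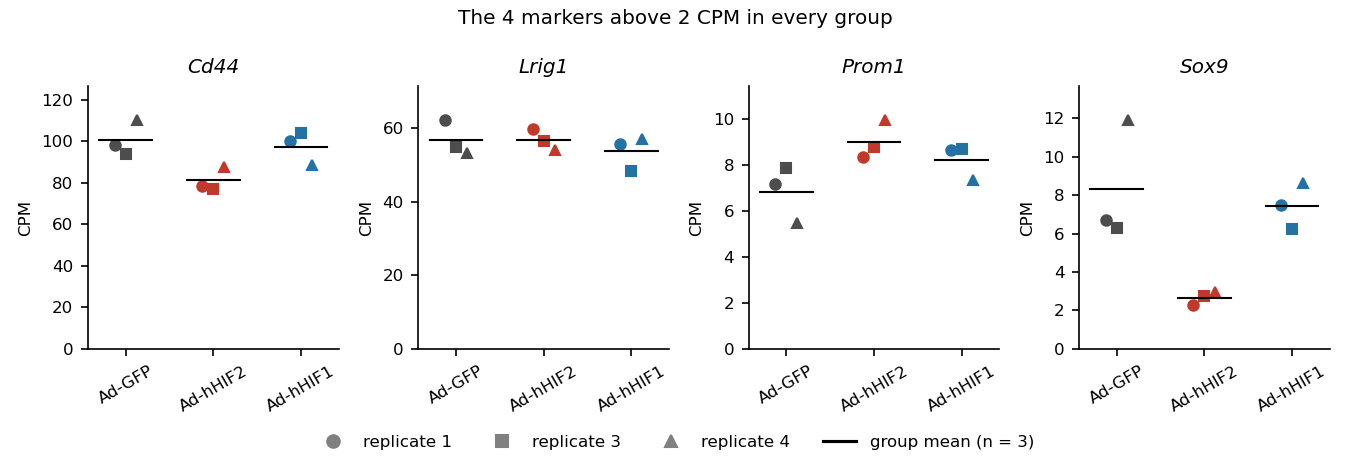
CPM of the 4 markers above 2 CPM in every sample, by group. Each point is 1 sample, the shape gives the replicate number and the bar is the mean of 3 samples. The 3 Ad-hHIF2 samples are the lowest for Sox9 and Cd44, and the groups overlap for Lrig1.

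Cd44 (chromosome 2, 102811141 to 102901665, minus strand) was at 98.1, 93.7 and 110.1 CPM in Ad-GFP and 78.6, 77.0 and 87.8 CPM in Ad-hHIF2 replicates 1, 3 and 4. It was at 100.2, 103.8 and 88.35 CPM in the Ad-hHIF1 samples. The Ad-hHIF2 samples lay below all others, although replicate 4 came close to Ad-hHIF1 replicate 4. The decrease with HIF2 was small, 1.24-fold (log2 fold change -0.31, standard error 0.0915, adjusted p = 0.0350, edgeR). It was not called without Ad-GFP replicate 1 or 4 or without Ad-hHIF2 replicate 1 or 3 (adjusted p = 0.0707, 0.0787, 0.122 and 0.119, edgeR). The size and direction depended on the scaling. With total counts in place of TMM, the median of all genes moved to 0.24 and Cd44 to -0.05 (adjusted p = 0.868, edgeR). On log2(TPM + 1) the median of all genes was 0.12 and Cd44 was at 0.10 (adjusted p = 0.843, limma). That reversal rested on Ad-hHIF2 replicate 1, without which Cd44 was at -0.10 and not called (adjusted p = 0.478, limma). The log2 change of Cd44 was below the median of all genes under each of these scalings. On log2(TPM + 1) they were close, and a pseudocount shrinks the changes of low genes more than those of high ones. Between the HIFs Cd44 differed by -0.26 on the log2 scale and was not called (adjusted p = 0.0593, edgeR). It was called there by DESeq2 (adjusted p = 0.0236), by limma-voom (adjusted p = 0.0411), with at least 10 counts required in every sample (adjusted p = 0.0316, edgeR) and without Ad-hHIF1 replicate 4 (adjusted p = 0.0384, edgeR), but was at 0.045 and 0.048 on the TPM scales and at -0.16 and -0.20 without Ad-hHIF2 replicate 1.

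Lrig1 (chromosome 6, 94604529 to 94700158, minus strand) was at 62.1, 54.8 and 53.2 CPM in Ad-GFP replicates 1, 3 and 4. It was at 59.7, 56.6 and 54.2 CPM in Ad-hHIF2 and at 55.8, 48.5 and 57.0 CPM in Ad-hHIF1 organoids, and all groups overlapped. The 95% interval of the log2 fold change was -0.18 to 0.19 for HIF2 and -0.29 to 0.14 for HIF1 against Ad-GFP. Its paralog Lrig3 rose 2.34-fold in Ad-hHIF2 organoids, from 5.60, 5.77 and 3.40 to 11.9, 12.1 and 10.9 CPM (log2 fold change 1.22, adjusted p = 0.00138, edgeR). Lrig2, the other family member, rose by 0.37 on the log2 scale (adjusted p = 0.0140, edgeR), a call that was lost on both TPM scales (adjusted p = 0.321 and 0.265, limma).

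Prom1 (chromosome 5, 43993620 to 44102032, minus strand) was at 7.16, 7.84 and 5.45 CPM in Ad-GFP and 8.32, 8.75 and 9.93 CPM in Ad-hHIF2 replicates 1, 3 and 4. All Ad-hHIF2 samples lay above all Ad-GFP samples. The log2 fold change was 0.39 (95% interval 0.05 to 0.73) and was not called (adjusted p = 0.0813, edgeR). It was called with total counts (0.64, adjusted p = 0.0126, edgeR) and without the count filter (0.42, adjusted p = 0.0306, edgeR). In Ad-hHIF1 organoids Prom1 was at 8.64, 8.67 and 7.34 CPM, which overlapped both other groups.

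RSEM also reports for each gene the mean length of its transcripts, weighted by their abundance. It moves where the use of transcripts changes, and in samples with few or no counts it is poorly estimated or not a measurement. Of the markers, 7 have more than 1 transcript in the tables, and 21 comparisons were made with a two-sided exact permutation test, whose smallest p with 3 against 3 samples is 0.10. None passed. Of these comparisons, 12 are of genes with fewer than 10 counts in some sample, and only the other 9, of Prom1, Cd44 and Lrig1, are described here. The mean Prom1 transcript was 2077, 2301 and 2600 bases long in Ad-hHIF2, 1719, 1757 and 2059 in Ad-hHIF1 and 2108, 1957 and 1711 in Ad-GFP replicates 1, 3 and 4. The groups of the HIFs did not overlap, which gave the smallest p possible (exact permutation p = 0.10, 0.70 after Benjamini-Hochberg adjustment over the 21 comparisons and 0.36 over the 9). The Ad-GFP samples overlapped those of Ad-hHIF2 (exact permutation p = 0.20). The mean length of Cd44, a gene known for its variable exons, was 3712 to 3938 bases in Ad-GFP, 3780 to 3895 in Ad-hHIF2 and 3768 to 4161 in Ad-hHIF1 organoids, and all groups overlapped. That of Lrig1 was 4060 to 4523 bases in Ad-GFP, 4500 to 4760 in Ad-hHIF2 and 4445 to 4793 in Ad-hHIF1 organoids. It was longer by 354.2 bases with HIF2 and by 348.9 with HIF1 on average, both within overlapping groups (exact permutation p = 0.20 for each).

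**Figure D4:**
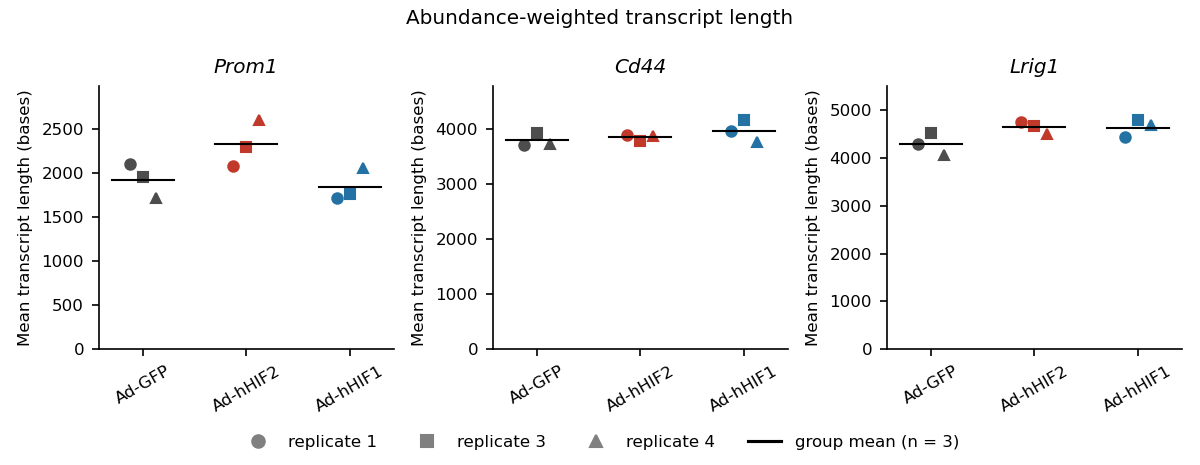
Mean transcript length in bases, weighted by abundance, of Prom1, Cd44 and Lrig1 by group. Each point is 1 sample, the shape gives the replicate number and the bar is the mean of 3 samples. The Ad-hHIF2 samples lie above the Ad-hHIF1 samples for Prom1, and the groups overlap for Cd44.

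The low markers rested on few counts. For Lgr5, the sum over samples was 86 counts in Ad-hHIF2 and 17 in Ad-GFP, a depth-scaled ratio of 3.73. Ad-hHIF2 replicate 1 held more of these than the other two Ad-hHIF2 samples together, and without it the ratio was 2.26. Leaving out another of the 6 samples gave 2.74 to 5.04, with the lowest without Ad-GFP replicate 1. Even at its highest, in Ad-hHIF2 replicate 1, Lgr5 was at 1.19 CPM. Its paralogs Lgr4 and Lgr6, which also bind R-spondins, were far above it, at 16.6 to 24.1 and 10.2 to 16.7 CPM over the 9 samples. Lgr6 fell by 0.45 on the log2 scale with HIF2 (adjusted p = 0.0153, edgeR), and Lgr4 was at 0.07 (adjusted p = 0.736, edgeR). On log2(TPM + 1) and log2(TPM + 0.1) Lgr6 was at 0.008 and 0.002, in the other direction, but at -0.04 and -0.12 without Ad-hHIF2 replicate 1, and it was called under neither these nor total counts.

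Axin2 (chromosome 11, 108920349 to 108950783, plus strand) had 22, 3 and 13 counts in Ad-GFP, 31, 47 and 31 in Ad-hHIF2 and 10, 10 and 13 in Ad-hHIF1 replicates 1, 3 and 4. The Ad-hHIF2 samples lay above all others, also after scaling to depth. The log2 fold change of HIF2 was 1.02 against Ad-GFP (95% interval -0.40 to 2.44, adjusted p = 0.253) and 1.31 against Ad-hHIF1 (adjusted p = 0.157), and neither was called (edgeR). With 1 sample left out it ran from 0.486 to 1.395 against Ad-GFP and from 1.173 to 1.465 against Ad-hHIF1. Against Ad-GFP it was called on log2(TPM + 0.1), at 0.49 (adjusted p = 0.0439, limma), where the median of all genes was 0.30. Axin2 was at 0.03, 0 and 0.03 TPM in Ad-GFP and at 0.11, 0.04 and 0.06 TPM in Ad-hHIF2 replicates 1, 3 and 4. These values are near or below the pseudocount, and without Ad-hHIF2 replicate 1 Axin2 was not called on that scale. Msi1 (chromosome 5, 115429599 to 115455698, plus strand) had 35, 29 and 3 counts in Ad-GFP, 9, 14 and 15 in Ad-hHIF2 and 37, 8 and 23 in Ad-hHIF1 organoids. These groups overlapped, and the log2 fold change of HIF2 was -1.05 (95% interval -2.53 to 0.43, adjusted p = 0.259, edgeR). Its paralog Msi2 was at 66.2 to 80.4 CPM in all 9 samples and was called in none of the comparisons.

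With HIF1 no marker changed detectably. Of the 10 markers, 7 were tested against Ad-GFP, and Lgr5, Olfm4 and Smoc2 were not. In edgeR's quasi-likelihood test 0 of the 7 were called, 0 had an unadjusted p below 0.05, and DESeq2 and limma-voom also called 0. Over all 15233 genes, 0% were called, 0% as lower and 0% with a 2-fold change, and 1308 genes had an unadjusted p below 0.05. The samples did not overlap for 0 of the 7 markers, against 17.4% of all genes. The widest interval was that of Ascl2, with a log2 fold change of 1.62 (95% interval -0.85 to 4.09, adjusted p = 0.683, edgeR). It ran from 0.94 without Ad-GFP replicate 3 to 3.39 without Ad-GFP replicate 4, and 3 Ad-hHIF1 samples but 1 Ad-GFP sample were past the minimum of the count filter. For Cd44 it was -0.05 (95% interval -0.27 to 0.17) and for Prom1 0.26 (95% interval -0.13 to 0.65).

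The direct contrast of the HIFs, fitted over all 9 samples, tested 8 markers. Lgr5 passed the count filter only through the Ad-hHIF2 samples, and Ascl2 had no Ad-hHIF2 sample past the minimum of that filter but all 3 Ad-hHIF1 samples, so that both are given as a description. Of the other 6, Sox9 alone was called, as lower with HIF2 and by more than 2-fold. Over all 15556 genes tested, 25.8% were called, 12.0% as lower and 6.11% with a change of at least 2-fold. The groups did not overlap for 3 of the 6 markers, against 41.8% of all genes. Ascl2 had 3 counts in all Ad-hHIF2 samples together and 58 in the Ad-hHIF1 samples, a depth-scaled ratio of 25.2. All 3 of the Ad-hHIF2 counts came from replicate 1, and without it the ratio was at least 16.4-fold, with 3 counts as the floor over the group. Leaving out another of the 6 samples gave 15 to 28.5, with the lowest without Ad-hHIF2 replicate 3. Because Ascl2 passed the filter through the Ad-hHIF1 samples alone, its p-value in this fit is not given as a test. In the Ad-GFP samples Ascl2 had 15 counts in all, between those of the HIF groups. With only the 6 HIF samples in the fit, Axin2 and Cd44 were called as well, with Axin2 at an adjusted p of 0.0495 (edgeR) and Cd44 just below the threshold.

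Other genes of crypt base stem cells were called in both directions with HIF2. Of 16 such genes, 11 were tested against Ad-GFP, 3 were higher and 2 lower, against 29.5% of all genes called in either direction and 13.6% as lower, and their median log2 fold change was -0.20. With total counts, 3 were higher, 0 were lower and the median was 0.06. On log2(TPM + 1) 1 was higher, 1 was lower and the median was 0.06, where 6.74% of all genes were called. On log2(TPM + 0.1) 1 was higher, 0 were lower and the median was 0.14, where 7.4% of all genes were. The sign of the median thus depended on the scaling, and calls on the TPM scales were fewer over all genes too. Without Ad-hHIF2 replicate 1, log2(TPM + 1) gave 3 higher, 0 lower and a median of -0.018 over 12 genes. There log2(TPM + 0.1) gave 2 higher, 0 lower and a median of -0.085 over 12 genes. Of all genes, 9.02% and 8.18% were called on these scales without that replicate. Ephb2, an ephrin receptor that positions cells along the crypt, rose from 2.13, 2.97 and 1.85 to 5.65, 5.10 and 5.53 CPM in replicates 1, 3 and 4 (log2 fold change 1.22, adjusted p = 0.00274, edgeR). Nrn1, a membrane-anchored protein, rose by 0.46 and Slc12a2, a sodium, potassium and chloride cotransporter, by 0.29 on the log2 scale (adjusted p = 0.00273 and 0.0188, edgeR). Cdca7, a cell division gene, fell from 14.5, 15.9 and 15.7 to 9.08, 9.57 and 9.35 CPM (log2 fold change -0.72, adjusted p = 0.000629, edgeR). Fstl1, a secreted glycoprotein, fell by 1.13 on the log2 scale (adjusted p = 0.0398, edgeR). With HIF1, 0 of 12 tested were called and 1 had an unadjusted p below 0.05. That gene set includes Rnf43, a Wnt-induced ligase that removes Wnt receptors, which is named here after its values were seen. It was at 4.56, 5.54 and 5.35 CPM in Ad-GFP, 4.94, 5.18 and 5.50 in Ad-hHIF2 and 3.26, 3.37 and 2.76 in Ad-hHIF1 replicates 1, 3 and 4. All Ad-hHIF1 samples lay below all others, and the direct contrast of HIF2 with HIF1 was called (log2 fold change 0.74, adjusted p = 0.00682, edgeR), while HIF1 against Ad-GFP was not (-0.72, adjusted p = 0.490, edgeR). On the TPM scales the direct contrast was not called (adjusted p = 0.366 and 0.390, limma). The direct contrast called 4 of the 12 tested genes of this set as higher and 1 as lower with HIF2, against 25.8% of all genes in either direction and 12.0% as lower. On log2(TPM + 1) and log2(TPM + 0.1) 0 of the 12 were called, where 2.36% and 2.96% of all genes were. Without Ad-hHIF2 replicate 1, 1 was called as higher on the first scale and 1 as lower on the second, against 8.97% and 8.32% of all genes.

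Among 5 genes described in reserve or injury-responsive stem cells, Clu, a secreted chaperone, was the most abundant and rose from 1051, 1046 and 1165 to 2116, 1742 and 1975 CPM with HIF2 in replicates 1, 3 and 4 (log2 fold change 0.84, adjusted p = 0.000461, edgeR). Mex3a, an RNA-binding protein, fell by 0.33 on the log2 scale (adjusted p = 0.0162, edgeR) but was at 0.07 and 0.12 on the TPM scales with pseudocounts of 1 and 0.1, and at -0.07 and -0.15 there without Ad-hHIF2 replicate 1. Bmi1, a Polycomb subunit, was not called (adjusted p = 0.934, edgeR). Hopx was at or below 0.150 CPM in all 9 samples. Of 7 paralogs of the markers tested with HIF2, Lrig2 and Lrig3 were called as higher and Lgr6 as lower, against 29.5% of all genes called. The other 4 were not called. On both TPM scales 1 of the 7 was called as higher and 0 as lower, against 6.74% and 7.4% of all genes.

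**Figure D5:**
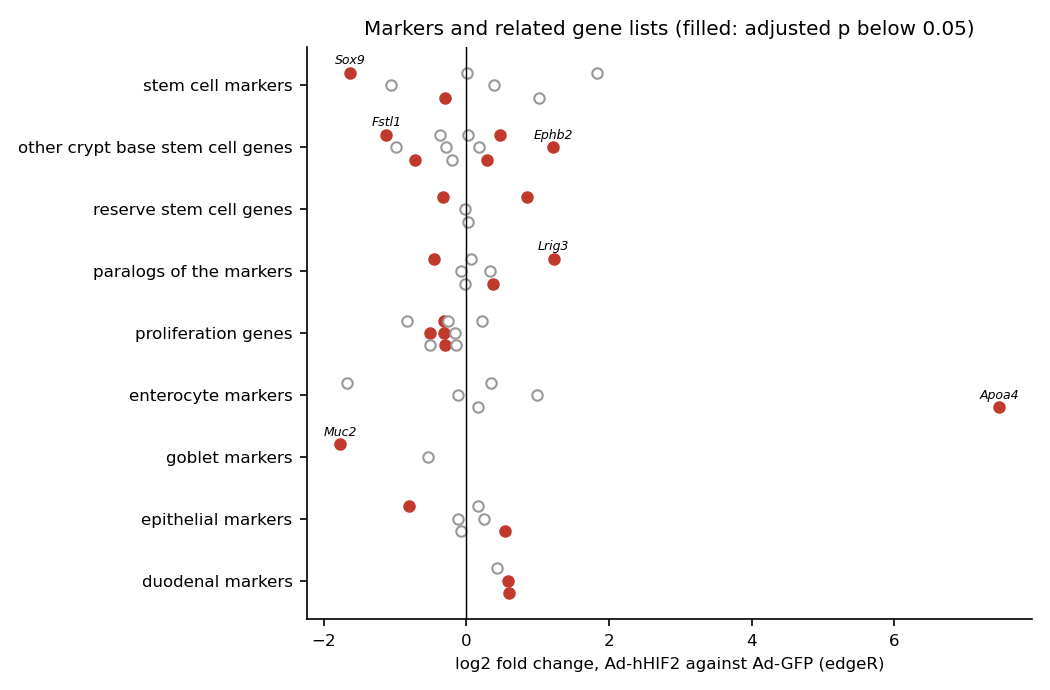
Log2 fold changes of Ad-hHIF2 against Ad-GFP organoids for the stem cell markers and related gene sets, 1 point per tested gene. Filled points have an adjusted p below 0.05 (edgeR), and called genes with a log2 change above 1 in size are named. The 4 called proliferation genes all lie below 0 and lose their calls with total counts, and the other stem cell sets have called genes on both sides.

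Some genes of proliferation and of cell types moved beside the markers. Of 10 proliferation genes tested, 4 were lower with HIF2 and 0 higher, against 13.6% of all genes called as lower, and their sum was 128 to 137 CPM in Ad-hHIF2 against 168 to 174 CPM in Ad-GFP and 165 to 177 CPM in Ad-hHIF1 organoids. Pcna, the replication clamp, fell by 0.51 and Mcm2, a subunit of the replicative helicase, by 0.31 on the log2 scale (adjusted p = 0.00629 and 0.00680, edgeR). With total counts 0 of the 10 were called and their median moved from -0.31 to -0.05, where the median of all genes was 0.24. On log2(TPM + 1) 0 were called, where 6.74% of all genes were, and their median was 0.03 against 0.124 over all genes. Without Ad-hHIF2 replicate 1, 0 were called there against 9.02% of all genes, and the medians were -0.04 and 0.023. Mcm2 was at 1.37, 1.34 and 1.53 TPM in Ad-GFP and at 2.21, 1.14 and 1.16 TPM in Ad-hHIF2 replicates 1, 3 and 4. The 10 markers together summed to 147 to 157 CPM in Ad-hHIF2 against 164 to 182 CPM in Ad-GFP organoids, most of it Cd44 and Lrig1. Muc2, the goblet cell mucin, fell from 4.65, 5.43 and 7.498 to 1.62, 1.49 and 2.005 CPM (adjusted p = 0.000882, edgeR), and it was called as lower with total counts and on both TPM scales too, though not on the latter without Ad-hHIF2 replicate 1 (adjusted p = 0.165 and 0.110, limma). Apoa4, an enterocyte apolipoprotein, was at or below 0.0277 CPM in Ad-GFP and at 2.22 to 2.81 CPM in Ad-hHIF2 organoids. It passed the count filter through the Ad-hHIF2 samples alone. Of the other 5 enterocyte genes tested, Fabp2 passed the filter through the Ad-GFP samples alone, and its values are a description. Krt20, Anpep, Apoa1 and Vil1 were not called, where 29.5% of all genes were. Of these, Krt20, Anpep and Apoa1 were higher on average with HIF2, and Vil1 was lower. Fabp2 had means of 0.502 CPM in Ad-GFP and 0.148 CPM in Ad-hHIF2. The 10 enterocyte genes summed to only 39.5 to 48.8 CPM in Ad-GFP and 49.2 to 51.6 CPM in Ad-hHIF2 organoids, most of it Krt20. Ptprc, the leukocyte surface phosphatase CD45 and the only immune gene tested, had 18, 24 and 23 counts in Ad-GFP, 3, 3 and 0 in Ad-hHIF2 and 10, 12 and 5 in Ad-hHIF1 replicates 1, 3 and 4, and it passed the filter against Ad-GFP only through the Ad-GFP samples. Of the epithelial genes, Cdh1 rose by 0.54 on the log2 scale with HIF2 (adjusted p = 0.00313, edgeR) and Epcam fell by 0.81 (adjusted p = 0.0472, edgeR), a call that was lost with total counts and on the TPM scales. Of the 3 duodenal factors, Gata4 rose by 0.59 and Onecut2 by 0.60 on the log2 scale (adjusted p = 0.00101 and 0.00196, edgeR), and these and Cdh1 were called as higher with total counts too. On the TPM scales these 3 were called only without Ad-hHIF2 replicate 1. Sox9 is also known in Paneth cells, whose 7 genes summed to at most 0.465 CPM in any sample. The part of any of these shifts in the marker values was not tested.

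Over the 9 samples, the genes whose log2 CPM followed Lgr5 most closely were Madd, Fam76b, Gm21685, Entpd4 and Rsbn1l, with Pearson's r from 0.985 to 0.946 among 12386 genes with a mean of at least 1 CPM. For Olfm4 they were Vta1, Wdr54, Psmc1, Tkfc and Sap30, with r from 0.915 to 0.876. Both orders are a description over 9 samples in 3 groups. Lgr5 was highest in Ad-hHIF2 replicate 1, and Olfm4 had counts in 1 library only.

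In the GRCm38 annotation, 8 of the 10 markers overlap another gene, and the sources used here do not say whether strand was used in counting. The overlapping genes that the tables hold had at most 10 counts in any sample, except Slc25a26 beside Lrig1 with 22 to 139 counts. The counts of 8 markers were whole in all samples, while those of Lgr5 and Prom1 were partly fractions, so that RSEM shared some of their reads with other genes.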

How the data were processed

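RNA sequencing of 9 samples in 3 groups of 3 was used, and groups and replicate numbers were taken from the sample labels. Before quantification with RSEM, the authors filtered out reads of low quality. The RSEM version, aligner, genome build, annotation and strandedness are not given in the sources used here. The deposited expected counts are not normalized. The deposited TPM and FPKM were computed by RSEM from these counts and the effective lengths. TPM were used only in alternatives, FPKM were not used, and the deposited lengths are means over transcripts weighted by abundance.

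Expected counts were rounded, filtered with filterByExpr, scaled by TMM and fitted over all genes by quasi-likelihood in edgeR 4.0.16 under R 4.3.3, with Benjamini-Hochberg adjustment at 0.05. The fit against Ad-GFP held the 6 samples concerned, and the direct contrast of the HIFs held all 9. EBSeq, the study's own test, was not run. CPM are given as mean ± SD or per sample. Ratios of summed counts are given without an interval, since reads are not replicates. Library totals of 21722618 to 51119041 put 3 counts at 0.0589 to 0.150 CPM. Between replicates of a group, counts differed by a chi-square of 23.7 to 430 per degree of freedom, so that none were duplicates.

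The members and gene lists were chosen with earlier results of these data known. Named genes are the 10 markers, from each list the 2 smallest adjusted p per direction with HIF2 if called, cell type checks, the 5 genes most like Lgr5 and Olfm4, and Epas1, Hif1a, Gm10800 and Gm26870, and others such as Rnf43, Slc12a2, Lgr4, Msi2, Bmi1 and Hopx were named after their values were seen. For samples of the same number in Ad-hHIF2 and Ad-GFP, the deviations from the means of their groups had correlations of 0.106 to 0.266. The numbers were therefore treated as possible pairs for that comparison, from the data and not from the design. This was done in the replicate block only, and the main fit has no block. Alternatives were other size factors, DESeq2 1.42.0, voom and a log2 TPM scale with a pseudocount of 1 or 0.1 in limma 3.58.1, other count filters, other samples in the fit, the replicate block, Gm10800 and Gm26870 left out, each sample left out in turn, a threshold of 0.01 and, added after seeing the data, Ad-GFP replicate 4 and Ad-hHIF1 replicate 3 both left out, the TPM scales without Ad-hHIF2 replicate 1, and transcript lengths only of genes with at least 10 counts in every sample. The fits were tested on simulated data. Positions come from GENCODE M21 by Ensembl identifier, which matched 46005 genes, and promoters from RefSeq (GRCm38.p6). Python 3.11.15 and matplotlib 3.10.9 drew the figures.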

Additional observations from a re-analysis of the deposited data

How the results depend on the processing

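Of the markers, Sox9 and Cd44 were called with HIF2 against Ad-GFP. The count of 2 became 1 on log2(TPM + 1), where Sox9 remained, 1 on log2(TPM + 0.1), where it was Axin2, 1 at an adjusted p below 0.01, 1 at 2-fold, 3 with total counts, where Cd44 was lost and Lgr5 and Prom1 were higher, and 4 without a count filter, which added Lgr5 and Prom1. The values of Lgr5 are a description, and without it these counts are 2 and 3. Calls over all genes moved as well, from 1010 to 5101 over the alternatives against 4416 in the main fit. Between the HIFs they ran from 367 to 4425, against 4008. With TMM the count of markers called with HIF2 ran from 1 to 2 with each sample left out. Without Ad-hHIF2 replicate 1, added after seeing the data, it was 0 on both TPM scales, where 9.02% and 8.18% of all genes were called. Between the HIFs the values of Ascl2 are a description, and apart from it Sox9 alone was called, also at 0.01. On log2(TPM + 1) no marker was called, and on log2(TPM + 0.1) none other than Ascl2 was. DESeq2 and limma-voom called Cd44 and Sox9, and the fit of only the 6 HIF samples called Axin2, Cd44 and Sox9. Sox9 was therefore lost on the TPM scales only, where its levels were near a pseudocount of 0.1 and below one of 1. Without Ad-hHIF2 replicate 1 it was called on log2(TPM + 0.1) but not on log2(TPM + 1). With at least 10 counts in every sample the calls were Cd44 and Sox9. The count without Ascl2 ran from 1 to 2 with each sample left out. With HIF1 against Ad-GFP the count was 0 throughout. The cause of the lost and added calls was not tested. With the replicate number as a block, no call changed: Cd44 and Sox9 were called with HIF2, 0 markers with HIF1, and Sox9 between the HIFs. Same-numbered samples correlated at -0.13 to 0.208 for HIF1 and Ad-GFP and at -0.309 to -0.104 between the HIFs, so that the block has no support there.

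Among the markers, these differences changed direction. With HIF2 against Ad-GFP, Cd44 was at 0.10 on log2(TPM + 1) and 0.12 on log2(TPM + 0.1), and Lrig1 was at -0.008 with at least 10 counts in every sample and at -0.03 to 0.08 with a sample left out. With HIF1 on log2(TPM + 1) and log2(TPM + 0.1), Axin2 was at 0.009 and 0.081, Cd44 at 0.056 and 0.071 and Sox9 at 0.009 and 0.047. With limma-voom Axin2 was at 0.20 and Sox9 at 0.032, and with total counts Cd44 was at 0.03 and Lrig1 at 0.008. Without both Ad-GFP replicate 4 and Ad-hHIF1 replicate 3, Sox9 was at 0.31 and Msi1 at -0.085 with HIF1, and Lrig1 at -0.004 between the HIFs. With a sample left out, HIF1 gave -0.83 to 0.034 for Axin2, -0.10 to 0.022 for Cd44, -0.32 to 0.20 for Sox9 and -0.45 to 0.45 for Msi1, and Lrig1 was at -0.003 to 0.13 between the HIFs. Between the HIFs Cd44 was at 0.045 and 0.048 on the TPM scales, and Prom1 at -0.106 and -0.232 on log2(TPM + 1) and log2(TPM + 0.1) without Ad-hHIF2 replicate 1. None of these values was called, although Cd44 with HIF2 was called at -0.31 with TMM. The called decreases of Lgr6 and Mex3a, and the median of the 10 proliferation genes, turned on the TPM scales as well, but not without Ad-hHIF2 replicate 1.

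Over all genes, log2(TPM + 1) and log2(TPM + 0.1) called 1010 and 1109 genes against 4416 with HIF2, and 367 and 460 against 4008 between the HIFs, which fell to 2594 without Ad-hHIF2 replicate 1. With HIF1 against Ad-GFP, DESeq2 called 139 genes, the fit without a filter 384, that of all 9 samples 7, limma-voom 5 and that without Ad-GFP replicate 4 and Ad-hHIF1 replicate 3 13, against 0.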
